A study of Mus musculus with 6 samples.

Results

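Described here are 35 genes of the interferon system in transferred mouse lung fibroblasts: the interferon receptors and their kinase Jak1, the STAT and IRF transcription factors, and interferon-stimulated genes. The genes were given as a list of symbols, with genes of class I antigen presentation left out, and were matched by symbol to the deposited count tables, where all 35 had a row among 19865. Primary lung fibroblasts of Col1a2-GFP transgenic mice on the C57BL/6 strain, in which a green fluorescent protein is driven by the promoter of a collagen gene, were transduced by retrovirus with trSrebf1, the active form of Srebf1c, a transcription factor that drives lipid synthesis, or with a control vector; hLNGFR, a human surface receptor, was the marker of the vectors. The cells were put into the trachea of C57BL/6 mice on day 5 after 2 mg/kg of bleomycin, which injures the lung, and doxycycline was given at day 7 to induce trSrebf1. On day 10, live GFP+ hLNGFR+ donor cells lacking CD45, CD31, EpCAM, CD146 and Ter119 were sorted, and 10000 cells per library were profiled by 3'SAGE-seq, which counts a tag near the 3' end of each transcript. Bleomycin, the transfer, the doxycycline day and the sort are recorded alike for both groups, each of 3 libraries, called control 1 to 3 and trSrebf1 1 to 3 by their labels. The labels name no separate animals or cultures behind the 3 libraries of each group, so p-values here measure only how far these libraries scatter, and that scatter may be technical.

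Interferons are cytokines that cells release on sensing foreign or misplaced nucleic acid. Type I interferons bind the receptor made of Ifnar1 and Ifnar2, and interferon gamma the receptor made of Ifngr1 and Ifngr2. Kinases on the receptor tails, Jak1 among them, then phosphorylate STAT proteins: STAT2 joins IRF9 in a complex that binds the interferon-stimulated response element (ISRE) in the promoters of antiviral genes, while interferon gamma acts mainly through the gamma-activated sequence (GAS). Fibroblasts carry both receptors and are a common source of type I interferon. In the lung, interferon-stimulated genes are best known from the response to virus infection.

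Library totals ranged from 3675146 to 4688196 counts. Levels are given as CPM, counts scaled to a common library size with TMM factors, which correct for composition. Srebf1 itself, counted as a check of the labels, stood at 8.39, 5.16 and 7.78 CPM in control and 28.6, 31.2 and 24.7 CPM in trSrebf1 libraries; which of these tags came from the transgene cannot be told. Of 10194 genes that passed the filter on low counts, 30.2% were called in either direction, 17.2% higher and 13.0% lower in trSrebf1 cells, by an adjusted p under 0.05 in the quasi-likelihood test of edgeR, with a median log2 fold change of -0.01 over all of them. That balance depended on the scaling: with upper-quartile factors 1552 genes were higher and 1649 lower. All 7 fibroblast markers had rows. Col1a1, Col1a2, Col3a1 and Dcn were abundant in every library, whereas Pdgfra stood at 8.49 to 13.6 CPM in control and 3.23 to 5.58 CPM in trSrebf1. Of the leukocyte markers the neutrophil gene Csf3r was present at 7.08 to 9.18 CPM in control and 7.31 to 9.64 CPM in trSrebf1 libraries. The other neutrophil markers of the list, S100a8, S100a9 and Ly6g, matched no row. Most other leukocyte markers were at or near 0: Adgre1, Marco, Siglech, Flt3, Ptprc, Cd3e and Nkg7 matched no row, and the summed level of the macrophage list was 1.03 to 4.72 CPM in control and 1.14 to 2.79 CPM in trSrebf1 libraries.

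Of the 35 interferon genes 34 were tested and 13 were higher in trSrebf1 cells, with 0 lower. This is 38.2% of those tested, beside 17.2% of all tested genes called higher. No member was lower at an unadjusted p under 0.05 in edgeR, and the DESeq2 Wald test and limma-voom also gave 0 lower calls. The median log2 fold change of the 34 was 0.47, with a range of -0.33 to 2.05, and 28 of the 34 values were positive. All 3 trSrebf1 libraries lay above all 3 control libraries for 13 members, the same 13 that were called, beside 23.1% of all tested genes. Groups stood apart in the other direction for 1 member, Ifnar2, beside 20.2% of all tested genes, and the groups of 20 members overlapped. The count of higher members was 8 without trSrebf1 3, 9 without trSrebf1 1 or without control 3, and 16 without trSrebf1 2. Of all tested genes 1578 of 10567 were higher without trSrebf1 3 and 1535 of 10587 without trSrebf1 1. The count was 1599 of 10578 without control 3 and 1656 of 10620 without trSrebf1 2.

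Markers of other cell types moved between the groups as well. The summed fibroblast markers were lower in trSrebf1 cells, at 28707 to 33690 CPM in control and 20232 to 23139 CPM in trSrebf1; 6 of the 7 genes were called lower, and Col1a1 was not (log2 fold change 0.12). The summed pericyte and smooth muscle markers were higher, at 158 to 171 and 326 to 383 CPM, most of it from Pdgfrb, Cspg4 and Des, which were called higher, while Myh11 of the same list was called lower (log2 fold change -1.14, adjusted p = 0.0497) and Mcam and Rgs5 stayed under 2 CPM. The dendritic cell list stood at 1.42 to 2.36 and 2.58 to 4.31 CPM, nearly all from Zbtb46. For each of these 3 sums the exact two-sided permutation p was 0.1, the smallest that 3 against 3 libraries allow, and 0.3 adjusted over 9 marker lists; their part in the interferon result was not tested, and in bulk libraries fewer cells of a type and less RNA per cell cannot be told apart.

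**Figure D1:**
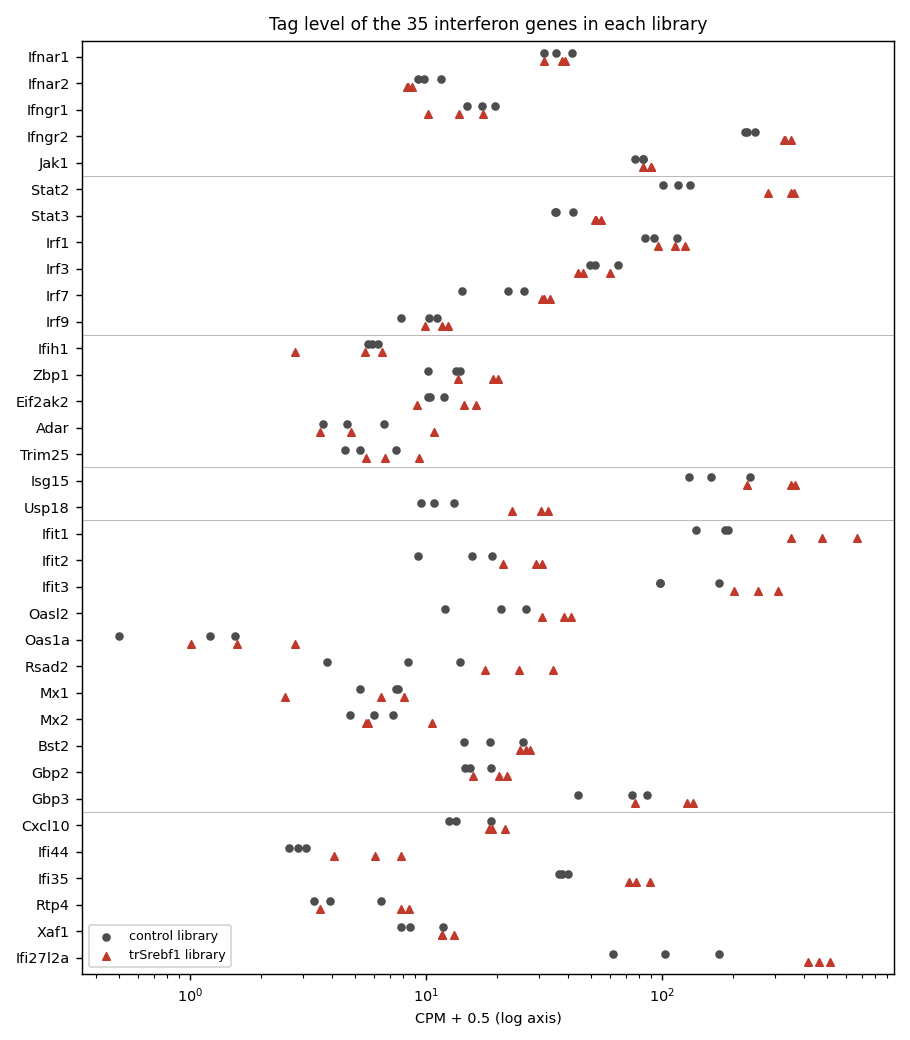
CPM plus 0.5 (x axis, log scale) of the 35 interferon genes (rows, grouped by role) in each of 3 control libraries (grey circles) and 3 trSrebf1 libraries (red triangles). Stat2, Usp18, Ifit1 and Ifi27l2a show a clear gap between the groups, whereas the symbols of Ifnar1, Irf1, Irf3 and Mx2 are interleaved.

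Sequences around the ISRE letters are shown for the 4 called members whose promoter window holds them, since STAT2 and IRF9 act through this element: Stat2 itself and the antiviral effectors Ifit1, Ifit3 and Rsad2. The promoter windows run from 250 bases before to 50 bases after a transcript start and come from RefSeq (GRCm38.p6), which had an entry for 29 of the 35 genes. The capitals mark the letters searched for, GAAA followed after any 2 bases by GAAA, or TTTC by TTTC on the other strand; the stretches read 5′ to 3′ on the gene's strand, and overlapping matches run together.
Ifit1 (chr19:34640760-34640838, plus strand): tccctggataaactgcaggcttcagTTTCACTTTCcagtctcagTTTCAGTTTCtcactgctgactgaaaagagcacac
Ifit3 (chr19:34583348-34583441, plus strand): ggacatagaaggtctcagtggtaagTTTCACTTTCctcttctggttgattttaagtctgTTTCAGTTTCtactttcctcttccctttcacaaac
Stat2 (chr10:128270251-128270310, plus strand): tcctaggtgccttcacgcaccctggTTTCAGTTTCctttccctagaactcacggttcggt
Rsad2 (chr12:26456538-26456597, minus strand): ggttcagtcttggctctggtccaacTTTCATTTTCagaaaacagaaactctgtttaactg

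For comparison, 4 of the 7 tested members whose windows hold the same letters and that did not pass the threshold are shown: the ubiquitin-like modifier Isg15, with 3 matches, the GTPase Gbp3, the chemokine Cxcl10 and the RNA-activated kinase Eif2ak2.
Isg15 (chr4:156200850-156200921, minus strand): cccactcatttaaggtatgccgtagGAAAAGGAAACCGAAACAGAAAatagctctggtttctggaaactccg
Gbp3 (chr3:142559974-142560039, plus strand): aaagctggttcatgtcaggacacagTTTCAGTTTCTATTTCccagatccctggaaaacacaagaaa
Cxcl10 (chr5:92349068-92349127, minus strand): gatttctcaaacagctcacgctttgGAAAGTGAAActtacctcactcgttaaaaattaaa
Eif2ak2 (chr17:78882523-78882579, minus strand): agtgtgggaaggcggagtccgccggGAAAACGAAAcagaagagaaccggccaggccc

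The letters were therefore found on both sides of the threshold. They occurred in 12 of 29 members with a window (41.4%), beside 3.62% of the 12776 symbols of the count tables with a window. Of 11 called members with a window 4 held them (36.4%), and of 17 tested members that did not pass 7 held them (41.2%). The 11 tested members with the letters had a median log2 fold change of 0.74 and the 17 without them 0.39. These medians compare unlike classes, since the 17 include all receptor chains, Jak1 and every transcription factor but Stat2. Among the interferon-stimulated members, with those classes left out, 11 of 18 held the letters (61.1%). Whether the letters go with the fold change within that class was not tested. The GAS letters TTCNNNGAA occurred in 9 of 29 members (31.0%) and 8.63% of the symbols. The letters of the sterol regulatory element, TCACNCCAC, through which SREBP proteins act, occurred in 0 of 29 members and 1.52% of the symbols. TCACNTGA, an E-box form of the SREBP site, occurred in 0 of 29 members and 4.65% of the symbols. With shares this low among all symbols, 0 of 29 tells little about the members. Both strands were searched and matches may overlap. A match describes letters in a window and is no evidence of binding, and these shares were not tested.

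Of the 4 receptor chains Ifngr2, the signalling chain of the interferon gamma receptor, rose, and Ifngr1, Ifnar1 and Ifnar2 did not pass the threshold. Ifngr2 (GRCm38, the build of all coordinates here, chromosome 16, 91547072 to 91565623) measured 223, 247 and 228 CPM in control and 351, 331 and 327 CPM in trSrebf1 libraries. The trSrebf1 libraries all lay above the control libraries, and their spread was small. The log2 fold change was 0.53 (SE 0.10, edgeR adjusted p = 0.000664). Ifngr1, which binds interferon gamma, stood at 19.1, 16.8 and 14.4 CPM in control and 13.3, 9.64 and 16.9 in trSrebf1, and the groups overlapped (log2 fold change -0.33, SE 0.24, adjusted p = 0.338).

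Ifnar1 and Ifnar2, which together bind type I interferons, lie beside Ifngr2 on chromosome 16 (91485238 to 91507441 and 91372783 to 91405589). Ifnar1 measured 34.9, 31.2 and 41.0 CPM in control and 31.2, 37.0 and 38.4 in trSrebf1, and the groups were interleaved (log2 fold change -0.01, SE 0.17, adjusted p = 0.971). Ifnar2 measured 11.01, 9.29 and 8.73 CPM in control and 8.17, 7.87 and 7.77 CPM in trSrebf1, so that every trSrebf1 library lay slightly below every control library, but the log2 fold change of -0.28 (SE 0.25) did not pass the threshold (adjusted p = 0.451). Over its 3' end Ifnar2 shares sequence with Gm21970, whose exons overlap it in the same orientation, which leaves its value uncertain. Jak1, the kinase used by both receptors, stood at 82.9, 75.9 and 82.1 CPM in control and 88.8, 82.5 and 89.5 in trSrebf1 (log2 fold change 0.12, SE 0.12, adjusted p = 0.529).

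Among the transcription factors Stat2, Stat3 and Irf7 rose, and Irf1, Irf3 and Irf9 did not pass the threshold. Stat2 (chromosome 10, 128270559 to 128292849), the STAT protein specific to type I and type III interferon signalling, stood at 117, 131 and 100.02 CPM in control and 353, 280.2 and 361 CPM in trSrebf1 libraries. The lowest trSrebf1 library was well above the highest control library, and the level was 2.86 times that of control (log2 fold change 1.51, SE 0.13, adjusted p = 8.44e-08). Irf9, the DNA-binding partner of STAT2, measured 7.34, 9.80 and 10.6 CPM in control and 11.8, 9.39 and 11.2 CPM in trSrebf1 libraries, with overlapping groups (log2 fold change 0.22, SE 0.25, adjusted p = 0.561). Whether the changes of these complex partners differ was not tested. Exons of Irf9 overlap those of Rnf31 on the same strand.

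Irf7, the factor that amplifies type I interferon production, measured 21.8, 25.5 and 13.7 CPM in control and 31.0, 30.5 and 32.9 CPM in trSrebf1 libraries. The trSrebf1 libraries lay close together and above a wider control group, and the difference passed (log2 fold change 0.63, SE 0.21, adjusted p = 0.0262). That call was lost without control 3 (adjusted p = 0.158), trSrebf1 1 (0.0598) or trSrebf1 3 (0.0701), with total counts (0.0551) and in DESeq2 (0.0609), with a range of 0.00794 to 0.158 over 15 alternatives. Irf3, which is activated directly by nucleic acid sensing, stood at 48.8, 64.8 and 51.4 CPM in control and 43.7, 59.6 and 45.7 in trSrebf1 (log2 fold change -0.15, SE 0.16, adjusted p = 0.549).

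Irf1, an early target of interferon gamma, measured 84.4, 92.1 and 115 CPM in control and 124, 95.4 and 113 in trSrebf1 (log2 fold change 0.19, SE 0.14, adjusted p = 0.358). Its groups overlapped, with control 3 above trSrebf1 2 and trSrebf1 3. Stat3, which mainly serves interleukin 6 family receptors and can be activated by interferons, rose from 41.4, 34.8 and 34.7 CPM to 51.2, 54.8 and 51.8 CPM, without overlap (log2 fold change 0.51, SE 0.15, adjusted p = 0.0141). The call of Stat3 was lost without control 2 (adjusted p = 0.0604) or control 3 (0.0769), with a range of 0.00753 to 0.0769 over 15 alternatives.

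**Figure D2:**
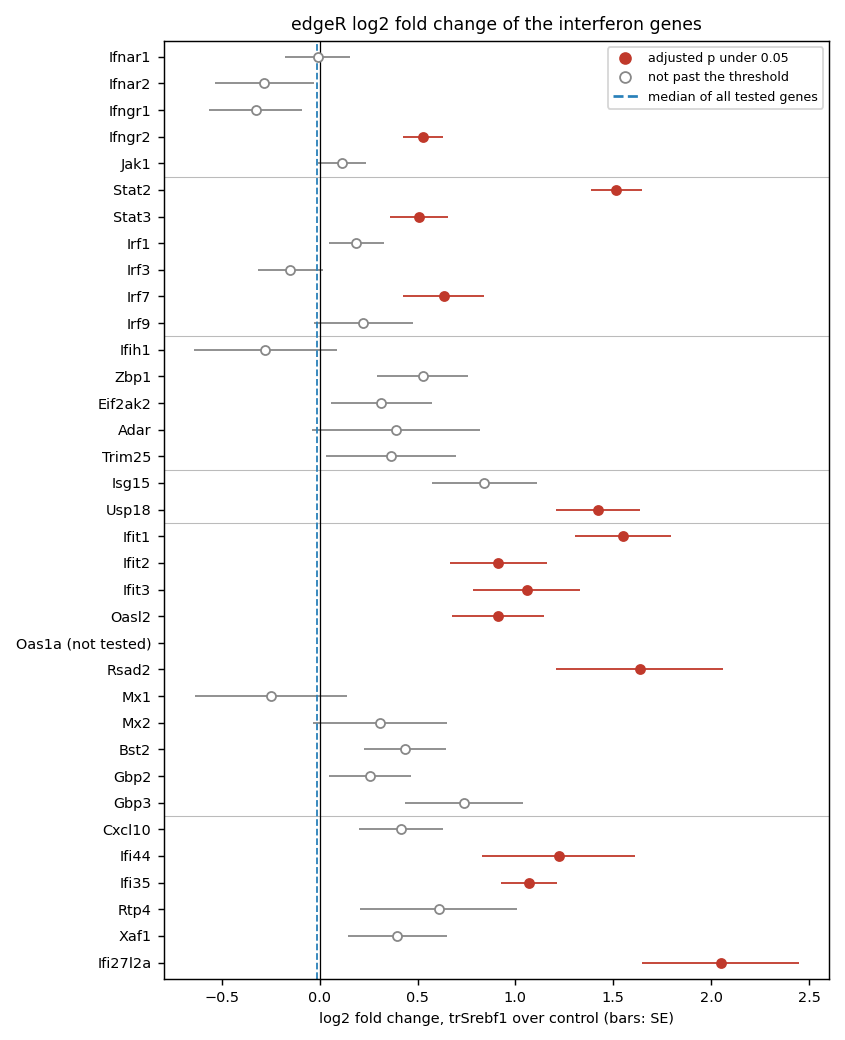
edgeR log2 fold change of each tested interferon gene, trSrebf1 over control (x axis, points), with its SE (bars), grouped by role; filled red points passed an adjusted p of 0.05 and the dashed line is the median of all tested genes at -0.01. The 13 filled points run from 0.51 for Stat3 to 2.05 for Ifi27l2a, and 0 members were called lower.

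Of the nucleic acid sensors and their partners 0 of 5 passed the threshold in edgeR, in DESeq2 or in limma-voom. In edgeR 30.2% of all tested genes were called, so 0 of 5 tells little about the class. Of the 5 genes 1, Zbp1, had an unadjusted p under 0.05 in edgeR. Their log2 fold changes ran from -0.28 for Ifih1, the MDA5 sensor of long double-stranded RNA, to 0.53 for Zbp1, which binds Z-form nucleic acid. Zbp1 measured 12.8, 13.4 and 9.67 CPM in control and 19.6, 13.2 and 18.7 CPM in trSrebf1 (SE 0.23, adjusted p = 0.103), with trSrebf1 2 among the control values. Without that library it passed the threshold (adjusted p = 0.0438), with a range of 0.0438 to 0.325 over 15 alternatives. Ifih1 measured 5.77, 5.42 and 5.19 CPM in control and 6.02, 2.28 and 5.02 in trSrebf1, with the same trSrebf1 2 lowest of all (SE 0.36, adjusted p = 0.622).

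The 3 other genes of this class had overlapping groups too. The kinase Eif2ak2 (PKR), which halts translation when it binds double-stranded RNA, stood at 9.70, 11.4 and 9.91 CPM in control and 13.98, 8.63 and 15.8 in trSrebf1 (log2 fold change 0.32, SE 0.26, adjusted p = 0.403). Adar, which edits double-stranded RNA, stood at 3.15, 4.13 and 6.13 CPM and 4.30, 3.05 and 10.3 CPM, with the high value in trSrebf1 3 (log2 fold change 0.39, SE 0.43, adjusted p = 0.551). Trim25, a ubiquitin ligase that acts on the sensor RIG-I, stood at 4.72, 6.97 and 4.01 CPM and 8.82, 5.08 and 6.17 CPM (log2 fold change 0.37, SE 0.33, adjusted p = 0.455). The 5 genes of the class stood under 20 CPM in every library.

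In the ISG15 system Usp18 rose and Isg15 did not pass the threshold. Usp18 (chromosome 6, 121245906 to 121270917) removes the ubiquitin-like protein ISG15 from its targets and binds Ifnar2 to damp type I interferon signalling. It measured 12.6, 10.3 and 8.96 CPM in control and 32.3, 22.6 and 30.1 CPM in trSrebf1 libraries. The groups were well apart, and the level was 2.67 times that of control (log2 fold change 1.42, SE 0.21, adjusted p = 6.03e-05). Isg15, the modifier itself, measured 129.8, 236 and 160.4 CPM in control and 349.5, 229 and 364 CPM in trSrebf1, so that control 2 stood above trSrebf1 2 and the groups overlapped. Its log2 fold change was 0.84 (SE 0.27, adjusted p = 0.0564).

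The call of Isg15 depended on the setting. It passed without control 2 (adjusted p = 0.00151) or trSrebf1 2 (0.00393), and also with DESeq2 size factors (0.0362), upper-quartile factors (0.0328), no filter (1.87e-08), without Ctsd (0.0388), in DESeq2 (0.000224) and in limma-voom (0.0499). Over 15 alternatives the adjusted p ranged from 1.87e-08 to 0.166, and the log2 fold change from 0.67 to 1.11.

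Among the antiviral effectors 5 of 10 tested members rose, beside 17.2% of all tested genes higher: the 3 IFIT genes, Oasl2 and Rsad2. The IFIT proteins bind viral RNA that lacks the marks of host messenger RNA, and their genes stand side by side on chromosome 19 (Ifit2 at 34550694 to 34576419, Ifit3 at 34583531 to 34588731 and Ifit1 at 34640871 to 34650009). Ifit1 measured 185, 190.2 and 138 CPM in control and 477, 351 and 672 CPM in trSrebf1 libraries. All trSrebf1 values lay above the control values, with a wide spread among them, and the level was 2.93 times that of control (log2 fold change 1.55, SE 0.25, adjusted p = 0.00220). Ifit2 rose from 15.2, 18.6 and 8.73 CPM to 28.6, 20.6 and 30.4 CPM (log2 fold change 0.91, SE 0.25, adjusted p = 0.00997). Ifit3 rose from 97.0, 173 and 97.4 CPM to 255, 201 and 308 CPM (log2 fold change 1.06, SE 0.27, adjusted p = 0.0267). All 3 neighbours were therefore higher in every trSrebf1 library than in any control library.

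The calls of Ifit1 and Ifit2 held under all 15 alternatives. That of Ifit3 was lost in 5 of them, among these without control 1 (adjusted p = 0.101), trSrebf1 1 (0.0821) or trSrebf1 3 (0.0717), and with total counts (0.0718), with a range of 3.89e-12 to 0.101. Of the 30-base stretches in the last 300 bases of Ifit3, 18.8% also occur in Ifit3b, so tags of the pair may not be separable.

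Oasl2, a member of the family of oligoadenylate synthetases, and Rsad2 (viperin), which makes a chain-terminating nucleotide, also rose. Oasl2 (chromosome 5, 114896936 to 114912234) measured 11.5, 26.1 and 20.3 CPM in control and 37.9, 30.5 and 40.7 CPM in trSrebf1 (log2 fold change 0.91, SE 0.23, adjusted p = 0.00710). Rsad2 measured 7.87, 13.4 and 3.30 CPM in control and 34.0, 17.3 and 24.2 CPM in trSrebf1 (log2 fold change 1.63, SE 0.43, adjusted p = 0.0172). The groups of both genes were apart, but those of Rsad2 were broad and its call was lost without control 1 (adjusted p = 0.0878) or trSrebf1 3 (0.0683), with a range of 3.44e-10 to 0.0878 over 15 alternatives. Oas1a, whose product activates RNase L, was the member that did not pass the filter, with 4, 0 and 3 counts in control and 5, 2 and 10 in trSrebf1 libraries, and 49.1% of the 30-base stretches at its 3' end also occur in Oas1g.

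The other effectors did not pass the threshold. Mx1 and Mx2, whose intact products are dynamin-like GTPases that trap viral particles, had few tags; both are known to carry defective alleles in C57BL/6 mice, and the annotation lists Mx2 as a polymorphic pseudogene. Mx1 stood at 7.08, 6.97 and 4.72 CPM in control and 7.53, 2.03 and 5.94 in trSrebf1 (log2 fold change -0.25, SE 0.39), with an adjusted p of 0.683. Mx2 stood at 5.51, 6.71 and 4.25 CPM in control and 5.16, 5.08 and 10.0 in trSrebf1 (log2 fold change 0.31, SE 0.34, adjusted p = 0.554). In each gene 1 trSrebf1 library stood apart, trSrebf1 2 below the rest for Mx1 and trSrebf1 3 above the rest for Mx2. Bst2 (tetherin), which holds budding virions at the cell surface, measured 18.1, 25.3 and 13.9 CPM in control and 26.0, 24.4 and 27.0 CPM in trSrebf1 (log2 fold change 0.44, SE 0.21, adjusted p = 0.133). It passed without control 2 (adjusted p = 0.0298), the control library that overlapped trSrebf1, with a range of 0.0298 to 0.474 over 15 alternatives.

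The guanylate-binding proteins Gbp2 and Gbp3, which attack the vacuoles of intracellular pathogens, are neighbours on chromosome 3. Gbp2 measured 14.2, 18.3 and 14.9 CPM in control and 19.8, 15.2 and 21.5 CPM in trSrebf1 (log2 fold change 0.26, SE 0.21, adjusted p = 0.400). Gbp3 measured 73.7, 85.9 and 43.6 CPM in control and 127, 76.1 and 134 CPM in trSrebf1 (log2 fold change 0.74, SE 0.30, adjusted p = 0.119), and trSrebf1 2 fell among its control values. Gbp3 passed without that library (adjusted p = 0.0106), with no filter (4.68e-05) and in DESeq2 (0.0117), with a range of 4.68e-05 to 0.294 over 15 alternatives. Part of its 3' end is shared with Gbp7.

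Of the remaining interferon-stimulated genes Ifi27l2a, Ifi44 and Ifi35 rose, 3 of 6, beside 17.2% of all tested genes higher. Ifi27l2a (chromosome 12, 103442167 to 103443680), which encodes a small hydrophobic protein, had the largest fold change of the 34 tested members. It measured 61.4, 174 and 102 CPM in control and 515, 417 and 463 CPM in trSrebf1 libraries. The SD was 56.8 CPM in control and 49.4 CPM in trSrebf1, so the control libraries spread more widely only relative to their mean. The level was 4.14 times that of control (log2 fold change 2.05, SE 0.40, edgeR adjusted p = 0.0168). The call was lost without control 3 (adjusted p = 0.0506), trSrebf1 1 (0.0601) or trSrebf1 3 (0.0661) and with no filter (0.0515), with a range of 2.50e-06 to 0.0661. Its near-copy Ifi27l2b had 1 count over all 6 libraries.

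Ifi35, a partner of the protein Nmi, had the smallest adjusted p of this class. It measured 39.6, 37.2 and 36.1 CPM in control and 76.8, 72.1 and 88.2 CPM in trSrebf1 (log2 fold change 1.07, SE 0.14, adjusted p = 1.52e-05), a call that held under all 15 alternatives. Ifi44 measured 2.36, 2.58 and 2.12 CPM in control and 5.59, 3.55 and 7.31 CPM in trSrebf1 (log2 fold change 1.22, SE 0.39, adjusted p = 0.0250). Its counts were 9, 10 and 9 in control and 26, 14 and 32 in trSrebf1, and the call was lost in DESeq2 (adjusted p = 0.120) and without control 2 (0.0523), control 3 (0.0802), trSrebf1 1 (0.0663) or trSrebf1 3 (0.141), with a range of 0.0114 to 0.141 over 14 alternatives.

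Cxcl10, the chemokine that draws CXCR3-bearing lymphocytes, measured 12.8, 18.3 and 12.0 CPM in control and 18.5, 18.02 and 21.0 CPM in trSrebf1. The 3 trSrebf1 values were close together, and control 2 lay between them (log2 fold change 0.42, SE 0.22, adjusted p = 0.167). Rtp4, a chaperone of receptor trafficking with antiviral action, and Xaf1, an antagonist of the apoptosis inhibitor XIAP, had overlapping groups. Rtp4 measured 3.41, 5.93 and 2.83 CPM in control and 7.31, 3.05 and 7.99 in trSrebf1 (log2 fold change 0.61, SE 0.40, adjusted p = 0.287). Xaf1 measured 11.3, 7.998 and 7.31 CPM in control and 11.2, 11.2 and 12.6 in trSrebf1 (log2 fold change 0.40, SE 0.25, adjusted p = 0.272). In Rtp4 trSrebf1 2 fell among the control values, and in Xaf1 control 1 among those of trSrebf1.

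The libraries of a group were not equal in interferon gene level. Taken over the 34 tested members, control 2 held the highest control value for 21 and control 3 the lowest for 21. Among the trSrebf1 libraries trSrebf1 3 was highest for 21 members and trSrebf1 2 lowest for 29. The median level relative to the control mean, on the scale of log2(CPM + 0.5), was 0.01, 0.17 and -0.17 in control and 0.53, 0.28 and 0.61 in trSrebf1 libraries. The summed CPM of the 35 members was 1437, 1836 and 1417 in control and 3194, 2550 and 3422 in trSrebf1 libraries.

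**Figure D3:**
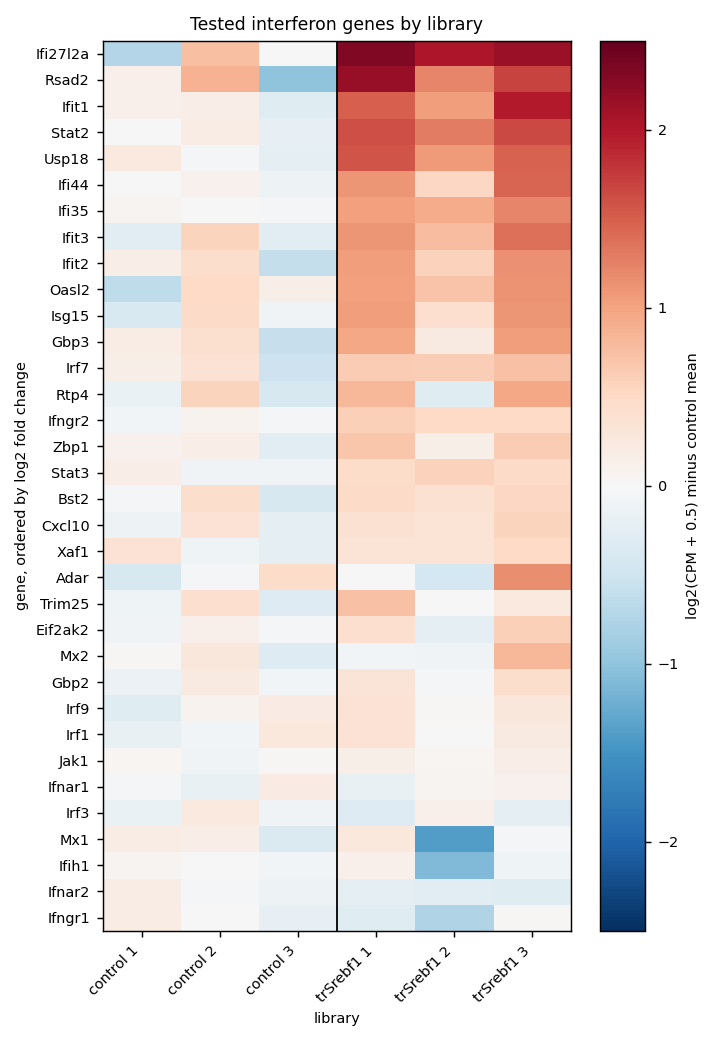
Level of the 34 tested interferon genes (rows, ordered by log2 fold change) in each library (columns), as log2(CPM + 0.5) minus the mean of the control libraries; red is above and blue below that mean. The trSrebf1 columns are red in the upper rows, the column of trSrebf1 2 is paler than its neighbours, and the column of control 2 is redder than the other controls.

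A list of 127 further genes of the pathway, none of them a member, was set beside the 35. Of these 106 had a row, 74 were tested, 21 were higher and 7 lower (28.4% higher; of all tested genes 17.2% were higher and 13.0% lower), and the median log2 fold change was 0.36. With upper-quartile factors 14 were higher and 9 lower, beside 1552 higher and 1649 lower of 10194 tested genes. Without trSrebf1 3 the higher count was 11, beside 1578 of 10567 tested genes. The partner genes then stood close to the share of all genes. Of 14 interferon ligands 2, Ifng and Ifnz, had a row. Ifng had 0, 0 and 0 counts in control and 0, 6 and 2 in trSrebf1 libraries; 0 of 11698060 control counts allow up to 0.256 CPM over the group, for counting error only. Ifnz had 1, 2 and 1 counts in control and 6, 2 and 1 in trSrebf1. Neither was tested, and the cells that gave these few tags cannot be told from bulk libraries.

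Among kinases, STATs and inhibitors of the pathway 2 of 7 tested genes fell, Socs3 and Jak2, beside 13.0% of all tested genes lower. Socs3, a feedback inhibitor that blocks receptor-bound JAK kinases, fell from 113, 96.5 and 104 CPM in control to 43.4, 39.6 and 56.9 CPM in trSrebf1, without overlap (log2 fold change -1.16, SE 0.15, adjusted p = 1.05e-05). Socs1, the main inhibitor of interferon gamma signalling, measured 193, 229 and 174 CPM in control and 103, 34.5 and 126 CPM in trSrebf1. Every trSrebf1 library lay below every control library, but the trSrebf1 libraries differed widely among themselves and the log2 fold change of -1.17 (SE 0.51) did not pass (adjusted p = 0.173). Without trSrebf1 2, the lowest library, it was -0.79 and passed (adjusted p = 0.000575), with a range of 0.000575 to 0.344 over 15 alternatives. Socs1 was named after its values were seen. Of the inhibitors of the pathway named here, Usp18 was thus higher in trSrebf1 cells and Socs3 lower.

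Of the receptor kinases outside the members 1 rose and 1 fell. Tyk2, which serves Ifnar1, measured 5.77, 2.58 and 3.77 CPM in control and 9.25, 8.88 and 8.68 CPM in trSrebf1 (log2 fold change 1.14, SE 0.32, adjusted p = 0.0110), a call lost without control 2 (adjusted p = 0.0616) and in DESeq2 (0.0510), with a range of 0.00346 to 0.0616. Jak2, which serves Ifngr2, fell from 8.65, 8.51 and 6.61 CPM to 2.80, 4.06 and 3.43 CPM, without overlap (log2 fold change -1.21, SE 0.32, adjusted p = 0.00762). Both genes rest on few tags, with 10 to 43 counts in a library.

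**Figure D4:**
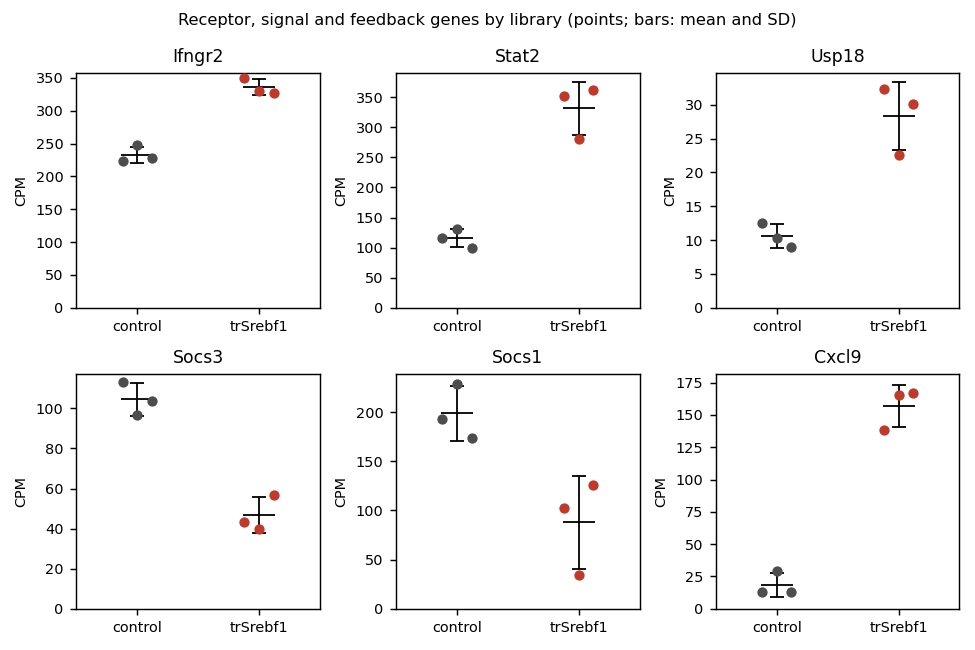
CPM (y axis, from 0) of Ifngr2, Stat2, Usp18, Socs3, Socs1 and Cxcl9 in 3 control and 3 trSrebf1 libraries (points), with the mean and SD of each group (bars). The groups do not overlap in any panel; Socs1 shows the widest spread relative to its mean among the trSrebf1 libraries, from 34.5 to 126 CPM.

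Of the interferon regulatory factors and their corepressors outside the members 1 of 4 tested genes passed, beside 30.2% of all tested genes. It was Irf2bp1, a corepressor that binds IRF2 (log2 fold change 0.38, SE 0.11, edgeR adjusted p = 0.0149). The call was lost without control 2 (adjusted p = 0.0611), trSrebf1 2 (0.0589) or trSrebf1 3 (0.0553) and with upper-quartile factors (0.0720), with a range of 0.00974 to 0.0720. Irf2, Irf5 and Irf2bp2 had log2 fold changes of 0.58, -0.09 and -0.35, and Irf2bp2 passed as lower with upper-quartile factors (adjusted p = 0.0478, with a range of 0.0478 to 0.356).

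Sensors and adaptors gave 1 higher (8.33%) and 2 lower of 12 tested, beside 17.2% higher and 13.0% lower of all tested genes. Trex1, the exonuclease that clears cytosolic DNA, stood at 299, 249 and 226 CPM in control and 513, 491 and 545 CPM in trSrebf1 (log2 fold change 1.00, SE 0.12, adjusted p = 3.43e-06), but its whole 3' end is shared with Atrip transcripts. Tlr4, the receptor for bacterial lipopolysaccharide, measured 23.6, 24.0 and 24.8 CPM in control and 19.8, 12.9 and 8.45 CPM in trSrebf1 (log2 fold change -0.81, SE 0.25, adjusted p = 0.0199), a call lost without control 2 (adjusted p = 0.0529), trSrebf1 2 (0.0608) or trSrebf1 3 (0.0979), with a range of 0.00231 to 0.0979. Samhd1, which depletes nucleotides, measured 45.9, 44.1 and 29.3 CPM in control and 29.3, 22.1 and 30.8 CPM in trSrebf1 and passed as lower although its groups overlapped (log2 fold change -0.53, SE 0.19, adjusted p = 0.0479). Its call was lost in 7 of 15 alternatives, among these without control 1 (0.153) or control 2 (0.165), without trSrebf1 1 (0.0837) or trSrebf1 2 (0.180), each left out alone, as well as in DESeq2 (0.111) and limma-voom (0.0635), with a range of 0.00844 to 0.180. Ddx58 (RIG-I), the sensor of RNA ends, did not pass (log2 fold change 0.41, SE 0.22, adjusted p = 0.188) but did so without control 2 (adjusted p = 0.0401), with a range of 0.0401 to 0.537.

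Of 51 further interferon-stimulated genes tested 17 rose (33.3%) and 3 fell. Among all tested genes 17.2% were called higher and 13.0% called lower. Over these 51 genes the log2 fold change had a median of 0.47. Cxcl9, a chemokine induced mainly by interferon gamma that shares the receptor CXCR3 with Cxcl10, measured 12.8, 29.4 and 13.2 CPM in control and 139, 166 and 167 CPM in trSrebf1. The groups were far apart, with 8.50 times the control level (log2 fold change 3.09, SE 0.28, adjusted p = 3.18e-05), whereas the member Cxcl10, given above, did not pass. Lgals3bp, a secreted glycoprotein, and Nampt, an enzyme of NAD synthesis, rose by 1.15 (SE 0.16) and 1.03 (SE 0.14) on the log2 scale. The Irf7 repressor Oasl1, the GTPase Iigp1 and the exonuclease Isg20, named after their values were seen, rose by 2.43 (SE 0.43), 1.08 (SE 0.20) and 1.11 (SE 0.22).

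Ifitm1, one of the membrane proteins that block virus entry, fell from 759, 866 and 794 CPM to 485, 543 and 461 CPM (log2 fold change -0.70, SE 0.11, adjusted p = 5.66e-05). Ifitm2 and the chemokine Ccl7, named after their values were seen as the other 2 of the class that fell, had log2 fold changes of -0.69 (SE 0.11) and -1.78 (SE 0.38). Ifitm3 did not pass (log2 fold change -0.14, SE 0.11, adjusted p = 0.406). The 3' ends of Ifitm2 and Ifitm3 are shared in part with other loci, so their values are uncertain.

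**Figure D5:**
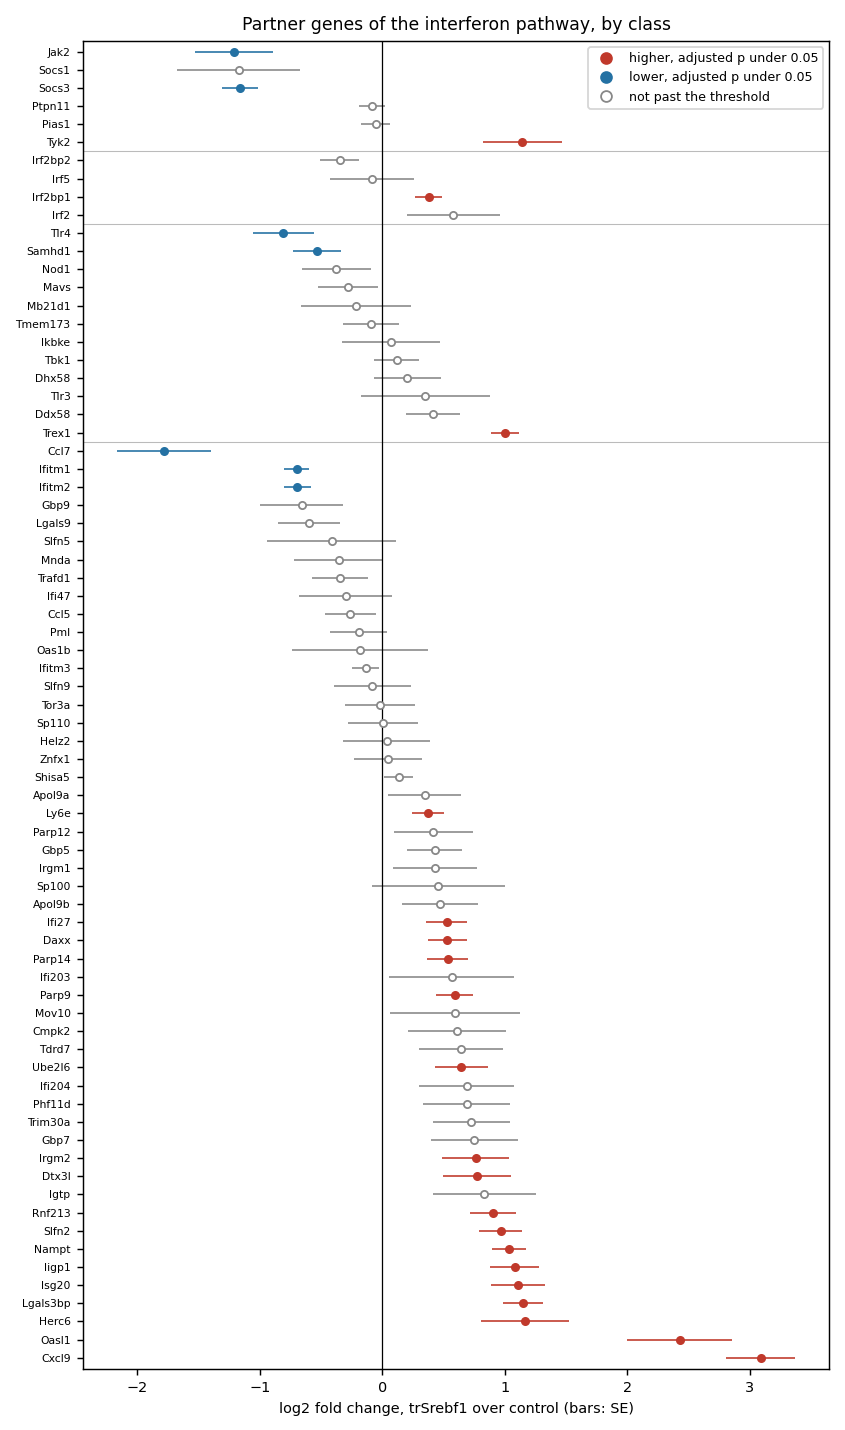
edgeR log2 fold change, trSrebf1 over control (x axis, points), with its SE (bars), of 73 of the 74 tested partner genes, in classes separated by lines (kinases, STATs and inhibitors; interferon regulatory factors; sensors and adaptors; other interferon-stimulated genes). Red points (20) were higher and blue points (7) lower at an adjusted p under 0.05; Cxcl9 lies farthest to the right at 3.09 and Ccl7 farthest to the left at -1.78.

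Several of the 35 genes share sequence or exons with other genes, and the use of strand in counting is not given in the sources used here. In 11 members, 3 of them called, some 30-base stretch of the last 300 bases of a coding transcript occurs in another gene: the copies Ifit3 with Ifit3b, Ifi27l2a with Ifi27l2b, Oas1a with Oas1g, Gbp3 with Gbp7 and Mx1 with Mx2, the overlapping pair Ifnar2 and Gm21970, and stretches found in many genes for Ifnar1, Stat3, Isg15, Xaf1 and Trim25. Exons of 11 members overlap a gene on the opposite strand. Among them are the called Stat3, Irf7, Ifi35 and Usp18, which overlap Stat5a, Phrf1, Gm11626 and Gm44148 in turn. If counting ignored strand, some of their tags may belong to those genes. Whether the overlaps reach the 3' ends where tags lie was not examined.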

How the data were processed

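Polyadenylated RNA of 10000 sorted cells per library was profiled by 3'SAGE-seq, per the labels' protocols. The authors deposited 1 table of whole-number counts per gene symbol for each of 6 libraries; Bowtie2 2.2.5 and mm10 are named, with no role, per the submitters' processing notes, and which program counted the tags, on what annotation and whether by strand is not given in the sources used here. The test was that of edgeR 4.0.16 under R 4.3.3 (TMM, filterByExpr with a minimum count of 10 and a total of 15, robust glmQLFit and glmQLFTest, group as the only term), with Benjamini-Hochberg adjustment over 10194 genes and a two-sided threshold of 0.05. CPM used TMM-scaled totals of the filtered genes. The SE is the log2 fold change divided by the square root of F; fold changes carry a prior count of 0.125. limma 3.58.1 and DESeq2 1.42.0 served as alternatives, as did other scalings, filters, the removal of each library and the removal of Ctsd, which held 107674 counts in control and 894603 in trSrebf1 libraries. The script was tested on simulated data. Coordinates and transcripts are those of GENCODE M21 (GRCm38, the build mm10).

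The members and lists were chosen with earlier results of these data known. All 35 members are named; of the partner list, up to 4 tested genes per class were named by smallest unadjusted p, and others are marked as chosen later; 1 gene so chosen is not reported here. Chi-square per degree of freedom between libraries of a group was 4.52 to 8.13, above the value of 1 that counting noise gives; this does not exclude technical repeats of the same cells. Intervals and limits cover counting error only, since amplified tags are not independent molecules.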

Additional observations from a re-analysis of the deposited data

How the results depend on the processing

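Under 15 alternatives the members gave 8 to 16 higher calls when 1 library was left out, and 12 with the filter of 5 CPM in 3 libraries, 11 with total counts, 14 with DESeq2 size factors, upper-quartile factors, no filter, limma-voom or without Ctsd, and 13 in DESeq2; in each of them 0 members were called lower. Partner genes gave 11 to 21 higher and 5 to 7 lower calls with 1 library left out. The lowest count of higher genes came without trSrebf1 replicate 3. Upper-quartile factors gave 14 higher and 9 lower partner genes, beside 1552 higher and 1649 lower of all 10194 tested genes. Over all genes, 10546 to 10627 tested, leaving 1 library out gave 1535 to 1734 higher and 1060 to 1230 lower calls. Of 508 single values of members under an alternative 472 stayed on their side of the threshold, 23 lost and 13 gained a call, and 0 called values changed sign. The members' median ranged from 0.38 without control replicate 3 to 0.62 without control replicate 2. The log2 fold change of Srebf1 ran from 1.79 to 2.11 with 1 library left out. With no filter on low counts the adjusted p of Isg15 was 1.87e-08 and that of Ifit3 3.89e-12, the lowest over their alternatives; the cause was not tested. With the replicate number as a block, 12 members and 18 partner genes were higher and 6 partner genes lower; the call of Ifit3 was lost (adjusted p = 0.0742), as was that of the partner Samhd1 (0.0751). Deviations of same-numbered libraries correlated at 0.01, -0.11 and -0.05 across genes, and those of differently numbered libraries at -0.07 to 0.11. These values show no pairing by number, and they cannot exclude one. Mx1, Mx2, Ifih1, Adar and Trim25, none far above 10 CPM in any library, had SE of 0.33 to 0.43, and a change of that size was not detectable at this depth.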

Other observations

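In trSrebf1 2 the inhibitor Socs1 stood at 34.5 CPM, and in the other trSrebf1 libraries at 103 and 126 CPM. The same library held the lowest trSrebf1 value for 29 of the 34 tested interferon genes. A relation between these values was not tested.

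The sort removed CD45+ cells, but a few tags of lymphocyte genes were counted. Klrb1c, a natural killer cell marker, had 0, 7 and 0 counts in control and 0, 6 and 1 in trSrebf1 libraries. Cd3d, a T cell marker, had 0, 1 and 0 counts in control and 0, 0 and 6 in trSrebf1. Ifng had 0, 0 and 0 counts in control and 0, 6 and 2 in trSrebf1 libraries. A relation between these few counts was not tested.

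The ISRE letters were found in 29 of 79 partner genes with a promoter window (36.7%). Of the partner genes with a window, 1 of 15 called higher (6.67%) and 1 of 5 called lower (20.0%) held them. The 79 include genes with too few tags to pass the filter, so these shares are not matched for level. The window covers 300 bases at annotated starts and says nothing of sites elsewhere, and no difference between these shares was tested.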
